A study of Mus musculus with 6 samples.

Results

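The genes described here are the germ cell isoforms and partner genes of glycolysis and energy supply: Slc2a3, Hk1, Gapdhs, Pgk2, Pgam2, Ldhc, Pdha2, Gk2, Cox6b2 and Ant4, the last now named Slc25a31. They were chosen by name, and every array probe whose deposited symbol was one of these names or an older symbol of it was taken. This gave 13 probes on 9 of the 10 genes, of 29537 genes named on the array. Of these, 9 probes on 7 genes carried a listed symbol, and 4 probes on 2 genes carried an older one, Gapds for Gapdhs and 1700034J06Rik for Slc25a31. Cox6b2 was matched by no probe and is not analysed here.

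RNA was measured in whole testis of mice homozygous (KO), heterozygous (HET) or wild type (WT) for H3f3b, which encodes the replication-independent histone variant H3.3. All mice were C57BL6J. The deletion was constitutive: a floxed H3f3b allele had been crossed to Zp3Cre, a Cre driver active in the growing oocyte, and carriers were then intercrossed. There were 2 mice per genotype, 1 from each of 2 litters, with 1 testis and 1 Illumina bead array per mouse. The source names and the design text give 8 weeks of age, whereas the age field reads E12.5. The spermatid genes Tnp1 and Prm1 were detected on all 6 arrays, and 8 weeks was used.

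Glycolysis splits glucose into pyruvate, which is reduced to lactate or oxidised in mitochondria. Male germ cells replace several of the widely expressed enzymes with isoforms of their own from meiosis onward. In mouse sperm some of the glycolytic enzymes, Gapdhs among them, are bound along the fibrous sheath of the tail, where they supply ATP for swimming. Gapdhs and Pgk2 are needed for sperm motility and male fertility. The germ cell genes Pgk2, Pdha2 and Gk2 are autosomal copies of X-linked genes, and the X chromosome is silenced in male meiosis. Some of the genes are not confined to germ cells: Hk1 and Slc2a3 are also used in brain, and Pgam2 in muscle.

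The 6 arrays were of similar depth, with summed signal between 15427284 and 17674449 and between 19809 and 21323 probes detected. H3f3b had a deposited signal of 96.6 and 93.0 in the KO testes, 2377.1 and 1833.5 in the HET testes, and 3810.8 and 3535.3 in the WT testes, so the labels matched the targeted gene. Pairwise correlations of log2 normalized signal between arrays were 0.982 to 0.993. Probe sequences and positions were not used here, so cross-hybridisation between an isoform and its close relative was not tested.

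Hexokinase 1 (Hk1) was the only gene of the group that was called. It fell in KO testes to 0.486 of its WT normalized signal, a log2 difference of -1.04. With the authors' scaled values the difference was smaller, at -0.83. The Hk1 call was lost when either KO or either WT array was left out. The other detected genes, Slc2a3, Gapdhs, Pgk2, Pgam2, Ldhc and Gk2, had mean KO signals within 0.22 of the WT mean on the log2 scale, and none passed the test. That closeness depended on the scaling. With median scaling Pgk2, the brighter Gapdhs probe and Pgam2 were at -0.47, -0.41 and -0.37, still not called. Of the counterparts outside the group, Hk2 and Ldhb rose in KO testes. Nothing in the group was called between HET and WT testes. In a whole organ, fewer cells of a type and less RNA per cell cannot be told apart.

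The windows upstream of the annotated starts are printed for 2 genes, since Hk1 was called and Ldhc, the brightest of the group, was not. Each holds the 250 bases before a RefSeq start (assembly GRCm38.p6), read 5′ to 3′ on the gene's strand, and capitals mark matches to the letters searched on both strands. Hk1 has 2 annotated starts, and germ cells of the mouse are known to use Hk1 transcripts that begin differently from the somatic ones. Which of these transcripts the probe reads was not tested. The Hk1 windows lie at chr10:62379909-62380158 and chr10:62340422-62340671, both on the minus strand, and the window of the first of 2 annotated Ldhc starts at chr7:46861013-46861262 on the plus strand.
Hk1 entry 1: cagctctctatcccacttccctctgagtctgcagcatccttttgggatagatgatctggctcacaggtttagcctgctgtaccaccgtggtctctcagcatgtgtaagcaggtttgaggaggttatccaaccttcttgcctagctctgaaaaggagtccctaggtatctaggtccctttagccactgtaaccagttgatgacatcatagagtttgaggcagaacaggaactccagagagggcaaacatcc
Hk1 entry 2: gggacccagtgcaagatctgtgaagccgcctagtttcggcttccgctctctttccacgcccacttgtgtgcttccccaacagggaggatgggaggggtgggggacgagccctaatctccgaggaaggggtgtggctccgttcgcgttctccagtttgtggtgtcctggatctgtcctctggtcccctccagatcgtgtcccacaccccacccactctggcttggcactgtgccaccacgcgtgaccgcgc
Ldhc entry 1: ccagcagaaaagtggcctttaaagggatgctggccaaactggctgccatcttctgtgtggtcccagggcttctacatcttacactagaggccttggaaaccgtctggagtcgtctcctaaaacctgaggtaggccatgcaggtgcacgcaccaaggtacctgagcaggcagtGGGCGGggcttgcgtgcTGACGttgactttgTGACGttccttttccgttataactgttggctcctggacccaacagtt
Searched were the cAMP response element TGACGTCA, its half-site TGACG, the GC box GGGCGG and the TATA box TATAAA. Any full element also contains the half-site. The printed Ldhc window held 2 half-sites, which began 61 and 47 bases before the start, and 1 GC box, which began 78 bases before it. The window of the second Ldhc start (chr7:46861237-46861486, not printed) and both Hk1 windows held none of the 4 motifs. Among all 32851 windows of that length, 1.55% held the full element, 17.8% the half-site, 32.7% the GC box and 12.4% the TATA box. Such matches are letters in a window, not measured binding.

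The first step of glucose use is uptake. Slc2a3 encodes the high-affinity glucose transporter GLUT3. Its log2 normalized signal was 13.48 and 13.20 in KO testes, 13.27 and 13.11 in HET testes, and 13.14 and 13.10 in WT testes. Both KO values lay above both WT values, and the litter 1 mouse was the higher in every genotype. The KO minus WT difference was 0.22 (95% interval -0.11 to 0.55; limma, Benjamini-Hochberg adjusted p = 0.368), and the sign turned with median scaling, where it was -0.03. HET minus WT was 0.07 (adjusted p = 0.936 in limma).

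Hk1 phosphorylates glucose and commits it to the cell. Its deposited signal was 497.3 and 540.5 in KO testes, 731.5 and 770.7 in HET testes, and 1005.8 and 852.8 in WT testes. After normalization the log2 values were 8.60 and 8.79 in KO, 9.28 and 9.64 in HET, and 9.83 and 9.65 in WT testes. Both KO values lay below all 4 others, while the HET value of litter 2 was level with its WT littermate. KO averaged 8.69 ± 0.14 and WT 9.74 ± 0.13 (SD, n = 2 each), a difference of -1.04 with SE 0.16 (95% interval -1.41 to -0.67; limma, adjusted p = 0.0161). Within litters the KO minus WT difference was -1.23 in litter 1 and -0.86 in litter 2. Across the array, 114 of 20573 tested probes had a lower KO minus WT difference than Hk1, and 145 had a smaller p. HET averaged 9.46 ± 0.25 (SD, n = 2), with HET minus WT of -0.27 (limma, adjusted p = 0.661), split between -0.54 in litter 1 and -0.01 in litter 2. KO minus HET was -0.77, which missed the threshold (limma, adjusted p = 0.0852).

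The Hk1 call depended on both mice of each homozygous genotype. Leaving out KO litter 1, KO litter 2, WT litter 1 or WT litter 2 gave adjusted p-values of 0.0971, 0.0510, 0.0696 and 0.0756 in limma. The difference itself stayed between -1.14 and -0.95 when any 1 array was left out, and over all the alternatives tried it ran from -1.14 to -0.83.

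**Figure D1:**
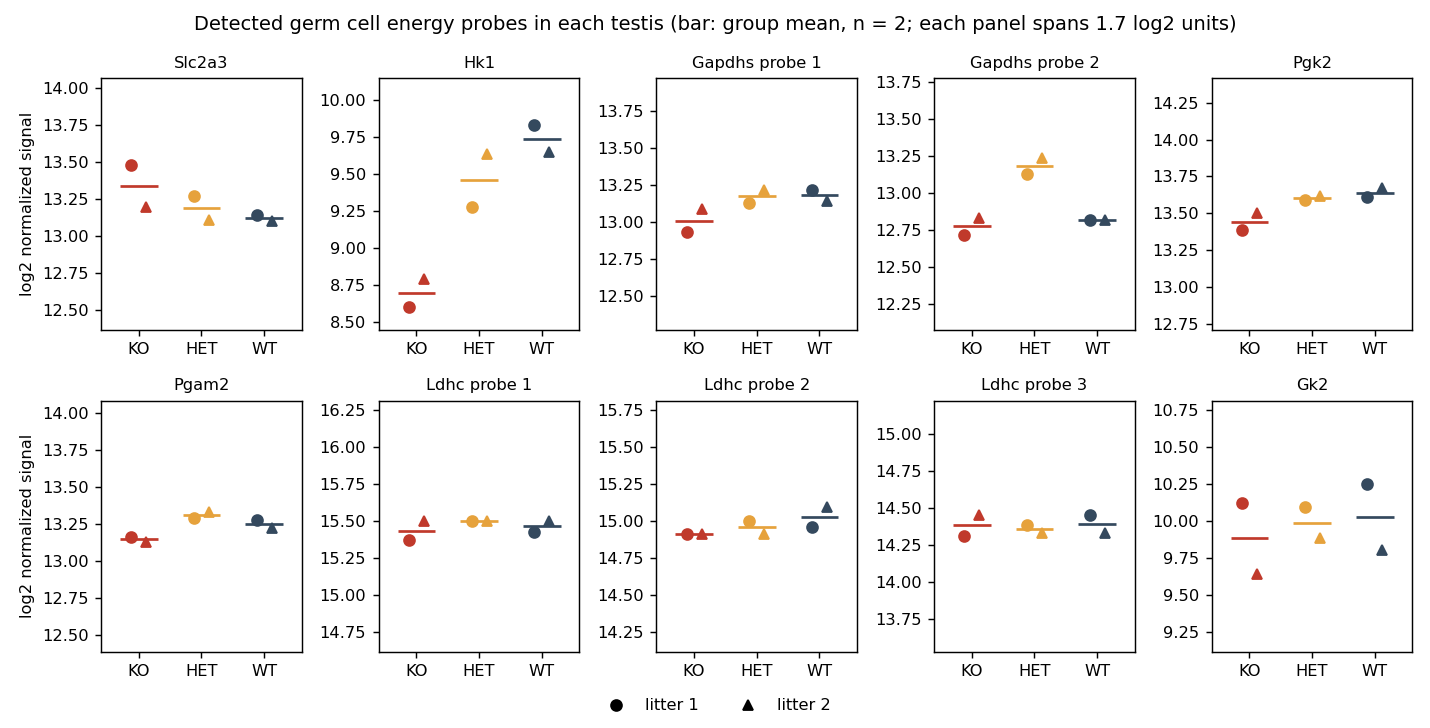
Log2 normalized signal (vertical axis) of each detected probe in every testis, with genotype along the horizontal axis, a symbol for each litter and a bar at the group mean (n = 2). Each panel spans the same number of log2 units. Hk1 is the only panel in which both KO testes sit far below the WT testes, at 8.60 and 8.79 against 9.83 and 9.65.

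Gapdhs, the sperm glyceraldehyde-3-phosphate dehydrogenase, had 2 probes. On probe 1 the log2 signal was 12.93 and 13.09 in KO, 13.13 and 13.22 in HET, and 13.22 and 13.14 in WT testes. Both KO values lay below the other 4 by a small margin. KO minus WT was -0.17 (95% interval -0.47 to 0.13; limma, adjusted p = 0.436). On probe 2 the values were 12.72 and 12.83 in KO, 13.13 and 13.24 in HET, and 12.82 and 12.82 in WT testes. Here KO and WT overlapped and both HET testes were higher than either. On probe 2 KO minus WT was -0.05 (95% interval -0.34 to 0.25; limma, adjusted p = 0.845). The probes disagreed on the heterozygotes: HET minus WT was -0.01 on probe 1 and 0.36 on probe 2 (limma, adjusted p = 0.993 and 0.514). KO minus HET on probe 2 was -0.41 (limma, adjusted p = 0.157).

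Pgk2, the germ cell phosphoglycerate kinase that makes the first ATP of the pathway, had a log2 signal of 13.39 and 13.50 in KO, 13.59 and 13.62 in HET, and 13.61 and 13.67 in WT testes. Both KO testes were lower than all others, and HET and WT overlapped. KO minus WT came to -0.20 (95% interval -0.49 to 0.09; limma, adjusted p = 0.346), with -0.22 in litter 1 and -0.18 in litter 2. HET minus WT was -0.04 (limma, adjusted p = 0.965). With the authors' scaled values in place of the normalization used here, Pgk2 fell, at -0.30 (limma, adjusted p = 0.030).

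Pgam2 is the muscle form of phosphoglycerate mutase, which sperm also carry. Its log2 signal was 13.16 and 13.13 in KO, 13.29 and 13.33 in HET, and 13.28 and 13.22 in WT testes. The KO values were again the 2 lowest. The KO minus WT difference was -0.11 (95% interval -0.40 to 0.18; limma, adjusted p = 0.621), and HET minus WT was 0.06 (limma, adjusted p = 0.932), which turned to -0.04 with median scaling.

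Ldhc encodes the germ cell lactate dehydrogenase subunit and was read by 3 probes. On the brightest the log2 signal was 15.37 and 15.50 in KO, 15.50 and 15.50 in HET, and 15.43 and 15.50 in WT testes. The genotypes overlapped on this probe, as did KO and WT on probe 3, while on probe 2 both KO testes (14.91 and 14.91) were below the WT testes (14.96 and 15.09). The KO minus WT differences on the 3 probes were -0.03, -0.11 and -0.01 (limma, adjusted p = 0.910, 0.610 and 0.974), and with cyclic loess all 3 signs turned, to 0.17, 0.10 and 0.13. The 95% intervals of probes 1, 2 and 3 were -0.32 to 0.27, -0.41 to 0.18 and -0.31 to 0.29. Probe 1 lay at 85.9% to 95.6% of the brightest signal on each array and ranked between 2 and 5, and quantile normalization gives probes of equal rank equal values. Little difference can therefore show for that probe.

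Gk2, a testis glycerol kinase that feeds glycerol into the pathway, had a log2 signal of 10.12 and 9.64 in KO, 10.09 and 9.88 in HET, and 10.25 and 9.80 in WT testes. The litter 1 mouse was higher than the litter 2 mouse in each genotype, and the genotypes overlapped. The KO minus WT difference was -0.14 (95% interval -0.61 to 0.32; limma, adjusted p = 0.686), the widest interval of the detected probes, and it turned positive when KO litter 2 or WT litter 1 was left out.

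Pdha2, the testis form of the pyruvate dehydrogenase alpha subunit, and Slc25a31, the germ cell ADP/ATP carrier, were detected on no array. Deposited Pdha2 signal was 83.4 and 87.7 in KO, 92.1 and 80.4 in HET, and 86.5 and 91.1 in WT testes, below array medians of 95.9 to 101.9, with detection p-values of 0.736 to 0.998. The Slc25a31 probes read 88.7 and 93.4 in KO, 91.6 and 89.8 in HET, and 92.6 and 103.1 in WT testes for probe 1. Probe 2 read 90.5 and 84.3 in KO, 98.2 and 84.2 in HET, and 85.3 and 101.5 in WT testes. These readings are no measure of the transcripts, and no fold is given.

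Over the 10 probes that passed the detection filter, on 7 genes, KO minus WT was negative for 9 (90%), against 44.8% of all tested probes, with a median of -0.11 against 0.04. The negative count was 10 of 10 with median scaling and 6 of 10 with cyclic loess. In KO against WT 1 of 10 was called, where 6.86% of all tested probes were called, 4.63% lower and 2.24% higher. KO values lay wholly below WT values for 5 of the 10 probes and wholly above for 1, against 25.6% and 31.3% of all tested probes. At an unadjusted p under 0.05 in limma stood 1 of the 10, against 27.8% of all tested probes. Since several of these probes share a gene, these are counts and not independent evidence.

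HET minus WT was negative for 6 of the 10 probes with a median of -0.02, against a median of 0.00 over all probes. None was called in HET against WT, and the percentage called over all tested probes was 0%, with a smallest adjusted p of 0.207. At an unadjusted p under 0.05 in limma stood 1 of the 10 (Gapdhs probe 2), against 8.85%, or 1820, of all tested probes. HET values lay wholly below WT values for 1 probe and wholly above for 2, against 19% and 20.9% of all tested probes. KO minus HET was negative for 8 of the 10 with a median of -0.13, against 0.02. None of the 10 was called in KO against HET at a background of 0.112%, of which 0.0924% lower and 0.0194% higher, and 2 had an unadjusted p under 0.05 in limma, against 19.2%. KO values lay wholly below HET values for 5 and wholly above for none, against 24% and 28.1% of all tested probes. The KO and HET comparisons share their WT arrays, so the medians of -0.11 and -0.02 are given only side by side.

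**Figure D2:**
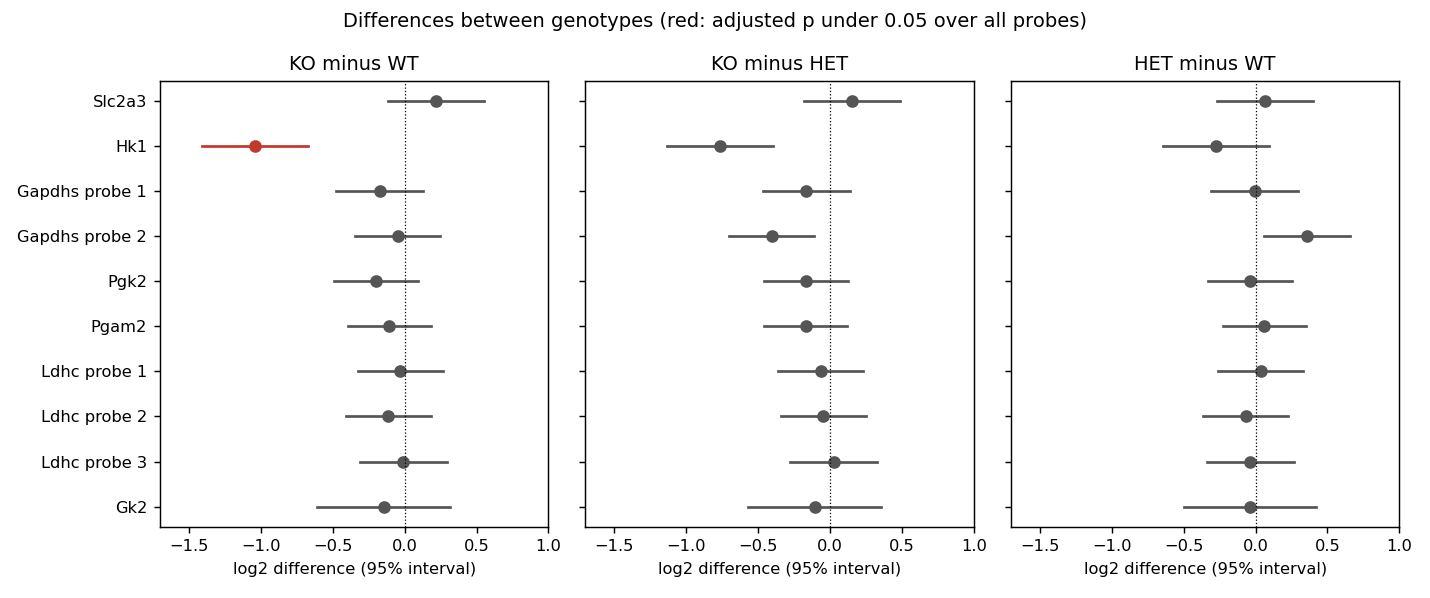
Differences in log2 normalized signal (horizontal axis, with 95% interval) for each detected probe, in 1 panel per pair of genotypes. Red marks an adjusted p under 0.05 over all probes, which only Hk1 reached, in KO against WT at -1.04; the interval for every other probe in that panel includes 0.

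Counterparts of these enzymes from outside the group were read next, at the brightest probe of each gene. Of 13 listed, 11 were detected, and 10 of the 11 had a positive KO minus WT difference, with a median of 0.42. Among all 20573 tested probes, 11357 were positive and 2.24% were called higher. An unadjusted p under 0.05 in limma was reached by 8 of the 11, against 27.8% of all tested probes. The count of 10 was the same under the 5 other scalings and background settings. Hk2, the hexokinase of muscle and of proliferating cells, rose: its log2 signal was 9.98 and 10.05 in KO, 9.72 and 9.66 in HET, and 9.54 and 9.38 in WT testes, a difference of 0.56 (SE 0.13; limma, adjusted p = 0.0413). Ldhb, the heart-type lactate dehydrogenase subunit, also rose, with 11.20 and 11.32 in KO, 10.86 and 10.75 in HET, and 10.44 and 10.65 in WT testes, a difference of 0.72 (SE 0.14; limma, adjusted p = 0.0264). For both genes the groups were fully separated and HET lay in between. The Hk2 call was lost with median scaling, with no detection filter and when any 1 array was left out. The Ldhb call was lost when any KO or WT array was left out.

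The other 9 counterparts missed the threshold. With the authors' scaled values 10 of the 11 were called higher, where 2935 of all 20573 tested probes were. With no background correction or an offset of 50 there were 4, where 1269 and 1195 of all were. With median scaling there was 1, where 394 of all were. The closest were Slc25a5, a somatic ADP/ATP carrier (0.54, limma adjusted p = 0.051), Hk3, a hexokinase of blood cells (0.62, adjusted p = 0.0527), Pgk1 (0.47, adjusted p = 0.0883) and Gapdh (0.41, adjusted p = 0.092). Pdha1, Pgam1, Cox6b1 and Slc2a1 gave 0.37, 0.42, 0.38 and 0.38, with adjusted p-values in limma from 0.138 to 0.227. Sizes of dim probes depended on the background. Without its correction Hk3 gave 0.22, Pgk1 0.28 and Slc2a1 0.20, and the median of the 11 was 0.28. Ldha, the muscle-type lactate dehydrogenase subunit, was the single negative one, at -0.08 (limma, adjusted p = 0.728). The other 2, Gyk and Slc25a4, were not detected often enough to be tested.

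Because a probe's level cannot be set against another probe's, pairs were compared only by how far each moved. Ldhc was left out of these pairs, since its brightest probe lies near the top of the signal range. In KO against WT its change was -0.75 against Ldhb. Against Ldha it was 0.05 (0.01 and 0.09 in litters 1 and 2), the only pair to move the other way. In each of the 5 other pairs the gene of the group moved lower than its counterpart in KO against WT, in both litters, with a median change of -0.59. This did not hold for every pair without background correction, where Slc2a3 and Slc2a1 gave 0.22 and 0.20. The change was -1.60 for Hk1 and Hk2 (-1.67 and -1.53 in litters 1 and 2), -0.59 for Gapdhs and Gapdh, and -0.68 for Pgk2 and Pgk1. It was -0.53 for Pgam2 and Pgam1, and -0.16 for Slc2a3 and Slc2a1. With 2 mice against 2, the smallest two-sided p an exact permutation test allows is 0.333, so no single pair could pass. In HET against WT the median change was -0.09, and in KO against HET it was -0.49.

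**Figure D3:**
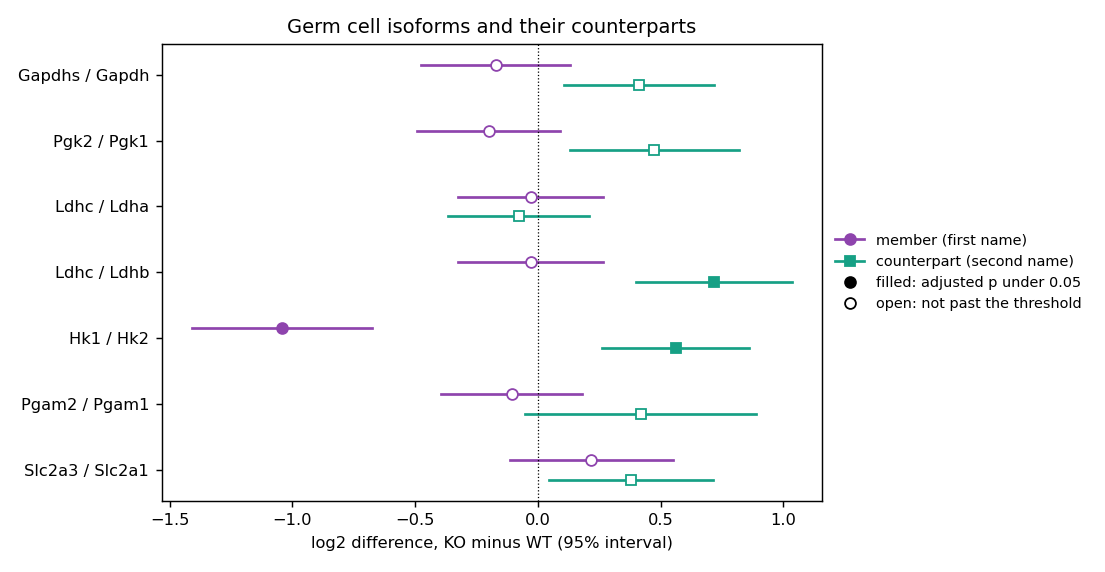
KO minus WT difference in log2 normalized signal (horizontal axis, with 95% interval) of each gene of the group and of its counterpart, 1 pair per row. Filled symbols passed an adjusted p of 0.05. Counterparts lie to the right of the gene of the group in all 5 pairs without Ldhc. Without background correction Slc2a3 and Slc2a1 gave 0.22 and 0.20, so that order was lost for them. The brightest Ldhc probe lies near the top of the signal range, with Ldha to its left and Ldhb to its right. Ldhc itself is positive with cyclic loess and Slc2a3 negative with median scaling.

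Across the 4 lists of related energy genes, 67 of 90 listed genes were detected. In KO against WT 5 of the 67 rose and 1 fell, where 2.24% of all tested probes were called higher and 4.63% lower, and the list median was 0.03 against 0.04 for all probes. With median scaling the balance turned, to 3 higher and 6 lower. At an unadjusted p under 0.05 in limma stood 26 of the 67 in KO against WT, against 27.8% of all tested probes. Besides Hk2 and Ldhb, the called genes were Cox7a1, Tktl1, Gpd1 and Aldoart2, of which Gpd1 passed the detection filter only through genotypes where it was higher. Cox7a1, the heart and muscle form of a cytochrome oxidase subunit, had log2 signals of 7.16 and 7.50 in KO, 6.68 and 6.84 in HET, and 6.47 and 6.43 in WT testes, a difference of 0.88 (limma, adjusted p = 0.0204). Its groups did not overlap, nor did those of the next gene. Tktl1, a transketolase-like gene, had 7.10 and 6.75 in KO, 6.49 and 6.46 in HET, and 6.24 and 6.35 in WT testes, a difference of 0.63 (limma, adjusted p = 0.0438). The dimmer Tktl1 probe gave 0.22 (limma, adjusted p = 0.402). Without background correction the differences at the brightest probes were 0.53 for Cox7a1 and 0.35 for Tktl1, both still called. Gpd2, the mitochondrial glycerol-3-phosphate dehydrogenase, was not called at its brightest probe (-0.12, limma adjusted p = 0.609), whereas its dimmer probe was called lower (-0.85, adjusted p = 0.034). Gpd2 was named after its values were seen.

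Gpd1, the cytosolic glycerol-3-phosphate dehydrogenase, was detected in both KO and both HET testes and in neither WT testis. Gpd1 thus passed the detection filter only through the genotypes in which it was higher. A call of Gpd1 as higher is therefore no separate support for a rise. Its deposited signal was 111.3 and 115.9 in KO, 118.8 and 113.1 in HET, and 95.4 and 104.1 in WT testes. KO minus WT was called at an adjusted p of 0.0491 in limma, and the call was lost under 13 of 14 alternatives. The size of so dim a signal depended on the background: the fitted log2 difference was 0.55 after the correction used here and 0.16 without it, and no fold is given. Aldoart2, a retrogene copy of aldolase A used in sperm, fell: its log2 signal was 11.33 and 11.40 in KO, 11.80 and 11.92 in HET, and 11.87 and 11.91 in WT testes, a difference of -0.52 (limma, adjusted p = 0.0461). Only KO stood apart there. Aldoart2 has near-identical relatives, and its probe may read more than 1 of them. The Cox7a1 call was lost when any KO or WT array was left out, and the Tktl1 and Aldoart2 calls when any 1 array was left out or the detection filter was dropped.

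Of 17 detected genes for other glycolytic steps, 11 were negative in KO against WT (median -0.09), and Aldoart2 was the 1 that fell. Of 15 genes for pyruvate, lactate and glucose transport and entry, none was called in limma, with a median of -0.03. An unadjusted p under 0.05 in limma was reached by 5 of the 15, against 27.8% of all tested probes. The 24 other testis energy genes had a median of -0.11, and 3 rose, Gpd1 among them. No gene of the 4 lists was called in HET against WT or in KO against HET. There 3 and 20 of the 67 had an unadjusted p under 0.05 in limma, against 8.85% and 19.2% of all tested probes.

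Markers of the cell types in a testis moved between the same arrays. Over all tested probes, 4.63% were called lower in KO against WT and 44.8% were negative. The 7 detected round spermatid markers were all negative in KO against WT (median -0.36, 2 fell: Catsper3 and Tekt5), and their summed deposited signal was 17364 and 17787 in KO, 21661 and 21347 in HET, and 22056 and 24623 in WT testes. The 9 elongating spermatid markers were negative (median -0.27), with none called in limma and 2 turned positive by cyclic loess. An unadjusted p under 0.05 in limma was reached by 2 of the 9, against 27.8% of all tested probes. The summed elongating spermatid signal was 133603 and 136280 in KO, 151576 and 135753 in HET, and 154194 and 158748 in WT testes. The summed signal of the germ cell energy genes was 84778 and 85214 in KO, 95016 and 82909 in HET, and 91346 and 92584 in WT testes. KO was below WT in each of these sums, which were not normalized between arrays. The energy gene sum of HET litter 2, whose array had the lowest summed signal, lay below both KO sums. Much of that sum was the brightest Ldhc probe, near the top of the signal range, at 43997.0 and 45543.9 in KO and 44933.9 and 48656.8 in WT testes.

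Somatic markers went the other way. Over all tested probes, 2.24% were called higher in KO against WT, and 11357 of 20573 were positive. All 11 detected Sertoli cell markers were positive in KO against WT (median 0.62, 7 rose, Inha most at 0.77), though with median scaling 1 was negative and 4 rose. Their summed signal was 25558 and 26200 in KO, 21038 and 17252 in HET, and 18252 and 17525 in WT testes. Of 8 Leydig cell markers 7 were positive (median 0.48, 3 rose, but 1 with median scaling or cyclic loess and 6 with the authors' scaled values), and their sum was 18110 and 18736 in KO, 11117 and 12374 in HET, and 12718 and 13117 in WT testes. Of the listed markers, 2 Sertoli, 2 Leydig, 1 round spermatid, 1 spermatocyte, 3 spermatogonia, 3 epididymis and 2 peritubular, endothelial or macrophage genes were detected on no array. The 6 spermatocyte markers had a median of 0.11, the 3 spermatogonia markers 0.41, and the 8 peritubular, endothelial and macrophage markers 0.21. Of 6 listed epididymis markers only 2 were tested, Defb30 and Defb21. Both fell (median -0.78), where 4.63% of all tested probes were called lower. The part of these shifts in the Hk1, Hk2 and Ldhb differences was not tested.

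**Figure D4:**
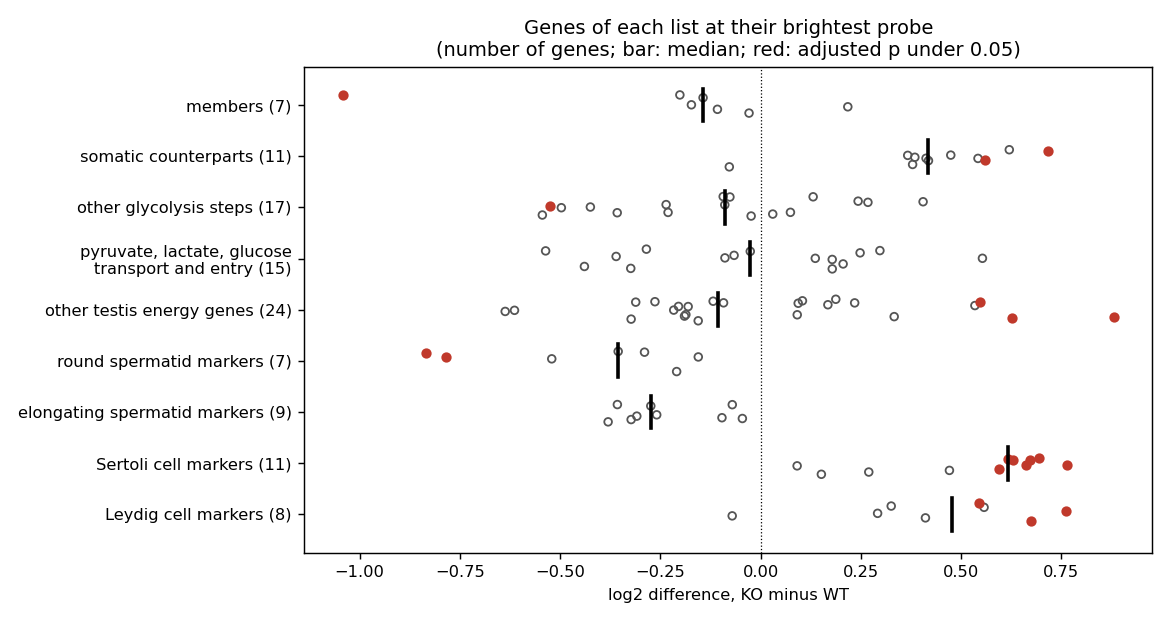
KO minus WT difference in log2 normalized signal (horizontal axis) of each gene at its brightest probe, by list, with a bar at the list median and called genes in red. The germ cell energy genes and spermatid markers lie mostly below 0 (medians -0.14, -0.36 and -0.27) and the Sertoli and Leydig markers mostly above (0.62 and 0.48); with cyclic loess Ldhc and 2 elongating spermatid markers turn positive, and with median scaling Slc2a3 and 1 Sertoli marker turn negative.

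The mean of the 7 detected genes, each centred on its own average, was -0.12 and -0.15 in KO, 0.04 and 0.06 in HET, and 0.13 and 0.03 in WT testes. Among 7444 other genes that varied by at least 0.5 on the log2 scale, 384 had a Pearson r over 0.9 with this profile across the 6 arrays. The 5 closest were 4933414E15Rik (r = 0.9974), LOC383513 (0.9955), Sppl2c (0.9947), 4930528J18Rik (0.9923) and Necab2 (0.9912). Their KO minus WT differences were -0.79, -0.52, -0.42, -0.96 and -0.77. With 6 arrays in 3 genotypes and Hk1 having the widest range of the 7, such values of r are a description only.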

How the data were processed

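Testis RNA of 6 mice was hybridised to Illumina bead arrays after extraction on RNeasy columns and biotin labelling, per the labels' protocols. The deposited table holds, per the file headers, an average signal on 45281 probes per array, here called intensity, each with its detection p-value. GenomeStudio is named in the submitters' processing notes. The version is not given in the sources used here. The deposited intensity values were linear and not normalized. A second deposited table held the same intensities multiplied by 1 constant per array, so that array means were equal.

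In limma 3.58.1 (R 4.3.3), background was corrected with neqc, which fits normexp to negative controls estimated from the detection p-values (offset 16), quantile normalizes and takes log2. Tested were probes detected, at p under 0.05, in both mice of 1 genotype or more (20573 probes on 14532 genes). lmFit and eBayes were fitted to all 6 arrays with genotype as the term (3 residual and 6.23 prior degrees of freedom), two-sided, and a probe was called at a Benjamini-Hochberg adjusted p under 0.05 over all tested probes. The number of arrays limits the precision. Replicates are separate mice, per the labels.

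Symbols were updated through a RefSeq gene table (GRCm38.p6): 13424 deposited symbols were current, 8145 were updated, 113 matched several genes and 9826 matched none. Named are all probes of the chosen genes, the brightest probe of each counterpart, each other energy gene called at its brightest probe in KO against WT or KO against HET, and the 5 genes of most similar profile. Marker genes of counted lists are named as examples. The genes and lists were chosen with earlier results of these data known.

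The labels give the litter of each mouse, so replicate numbers pair the mice. Litter deviations correlated at 0.168 for KO and HET, 0.134 for KO and WT, and 0.091 for HET and WT. Alternatives were median scaling, cyclic loess, no background correction, an offset of 50, the authors' scaled values, other filters, an intensity trend, litter as a block, the mean of a gene's probes and leaving out each array.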

Additional observations from a re-analysis of the deposited data

How the results depend on the processing

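Hk1 kept its direction in KO against WT under all 15 alternatives. With 2 mice per genotype, leaving out an array leaves a lone sample that is assumed to vary like the others. Of the probes of the chosen genes, 1 was called in KO against WT, 2 (Hk1 and Pgk2) with the authors' scaled values, and 0 to 1 when an array was left out. In KO against HET the count was 0, but 2 without background correction, 1 with offset 50, 2 with the authors' scaled values and 2 with an intensity trend, always including Hk1 and otherwise Gapdhs probe 2. With litter as a block, the pairing changed no call on these probes, Hk1 giving -1.04 (limma, adjusted p = 0.0179). The cause of each change was not tested.

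The count of 6 called among the 67 related energy genes in KO against WT (5 higher) became 9 with median scaling (3 higher), 17 without background correction, 16 with offset 50, 23 with the authors' scaled values, 2 with no detection filter, 18 with an intensity trend, 11 with the litter block and 12 with the mean of a gene's probes, and ran from 0 to 2 with an array left out. In KO against HET it was 0, but 4, 3, 11 and 6 without background correction, with offset 50, with the authors' scaled values and with the trend. Over all probes, 1412 were called in KO against WT (32.6% higher), 1844 with median scaling (21.4% higher), 2854 without background correction (44.5% higher), 2783 with offset 50 (42.9% higher), 4292 with the authors' scaled values (68.4% higher) and 528 with no detection filter. Without KO litter 1 or WT litter 2 there were 22 and 29.

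Signs turned with median scaling for Slc2a3 (-0.0262 in KO against WT, -0.0237 in HET against WT, -0.0026 in KO against HET), Pgam2 (-0.0362 in HET against WT) and Ldhc probe 3 (-0.12 in KO against HET). They turned with cyclic loess for Ldhc probes 1, 2 and 3 in KO against WT (0.17, 0.10 and 0.13), probe 3 in HET against WT (0.0171), and probes 1 and 2 in KO against HET (0.0446 and 0.13). With an array left out, KO minus WT ran from -0.10 to 0.0059 for Gapdhs probe 2, -0.39 to 0.10 for Gk2, -0.094 to 0.0366 for Ldhc probe 1 and -0.0801 to 0.0624 for Ldhc probe 3. HET minus WT ran from -0.0494 to 0.0353 for Gapdhs probe 1, -0.26 to 0.19 for Gk2, -0.10 to 0.0273 for Ldhc probe 3 and -0.0133 to 0.14 for Slc2a3. KO minus HET ran from -0.35 to 0.14 for Gk2 and -0.045 to 0.10 for Ldhc probe 3.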
